A study of Canis lupus familiaris with 15 samples.

Results

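The mir-17-92 cluster and its relative, the mir-106a cluster, were examined in the spleens of dogs. The 8 miRNAs described were mir-17, mir-18a, mir-19a, mir-20a, mir-19b and mir-92a, which make up mir-17-92, and mir-106a and mir-20b, which belong to the mir-106a cluster. They were chosen by name out of 277 miRNAs counted under 313 hairpins, and they cover 10 of those hairpins. All 8 passed the filter of at least 10 counts over the 15 libraries, as did 250 miRNAs in all.

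Small RNA had been sequenced from 5 splenic hemangiosarcomas, 5 spleens with nodular hyperplasia and 5 normal spleens, 1 library for each. Hemangiosarcoma is a malignant tumor of cells that line blood vessels, and nodular hyperplasia is a benign overgrowth of splenic tissue. Both kinds of mass were removed from client-owned dogs, whereas the normal spleens came from archived frozen tissue, so a difference from normal spleen cannot be told apart from a difference in the source of the tissue. No animal carried an engineered allele or a study treatment, and age, sex and breed were not used here. The replicate numbers only name the dogs of a group.

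A miRNA cluster is a single primary transcript from which several hairpins are cut, each giving a mature miRNA that lowers the translation and stability of messenger RNAs. In human and mouse, mir-17-92 is switched on by the transcription factors MYC and E2F, it is amplified in some B-cell lymphomas, and its members repress the cell death gene BCL2L11 and the cell cycle inhibitor CDKN1A. The mir-106a cluster arose by duplication of it. Mature miRNAs of both clusters fall into families with a shared seed, the bases that pair with a target. The 5' arm miRNA of mir-17 forms a family with mir-20a, mir-106a and mir-20b. Mir-18a and mir-18b form another, mir-19a and mir-19b a further one, and mir-92a and mir-363 the last.

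In the RefSeq annotation of the dog assembly UU_Cfam_GSD_1.0, used only for names and order, the 6 hairpins MIR17, MIR18A, MIR19A, MIR20A, MIR19B-1 and MIR92A-1 followed each other with no other gene between them. The 6 hairpins MIR106A, MIR18B, MIR20B, MIR19B-2, MIR92A-2 and MIR363 did so likewise. Each cluster therefore holds 1 copy of mir-19b and 1 of mir-92a, and the counts could not divide them. Over the 15 libraries the first copy of mir-19b had 34902 mature reads and the second 34943, none of them unique to a copy. For mir-92a these were 199663 and 199703 reads, with 4 and 36 unique reads. Each read had thus been counted on both copies, so the level of mir-19b and mir-92a is given here per hairpin copy, as the sum over copies divided by the number of copies. This counts each read once. It is the pooled level of both hairpins, and not the output of either cluster alone.

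Hairpin mir-17 is a further special case. The deposited tables annotate its mature sequence on the 3' arm alone, where 3765 of its 57934 reads lay, and the other 54169 reads lay elsewhere on the hairpin at positions the tables do not give. This share was 90.5% to 95.0% in every library, against 0.855% to 2.59% for mir-19a and 0.912% to 1.89% for mir-20a. In human, the 5' arm of mir-17 gives its main mature miRNA. The mature reads of mir-20a, mir-106a and mir-20b lay on the 5' arm. The annotated mir-17 reads, on the 3' arm, are therefore outside their seed family. Levels of mir-17 are therefore given both for the annotated mature sequence and for all reads of the hairpin.

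Mature counts came to 3040736 to 7548062 per library. Levels are given as CPM, counts scaled to a common library size, where the size of a library is its total times its TMM factor. This factor, estimated from all miRNAs, was 0.758 to 1.58 in the tumors, 0.776 to 1.62 in the benign masses and 0.494 to 1.05 in the normal spleens. The share of hairpin reads outside annotated mature sequences was 7.86% to 22.8% in the tumors, 5.37% to 10.4% in the benign masses and 4.83% to 8.57% in the normal spleens, and was highest, at 22.8%, 17.2% and 16.7%, in hemangiosarcoma replicates 4, 3 and 5. No library of a group was a copy of another, with a lowest chi-square per degree of freedom of 638 over 30 pairs.

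Of the markers of splenic and other cells, the 6 endothelial miRNAs summed to 29703 to 120670 CPM in the tumors, 11129 to 25817 CPM in the benign masses and 40410 to 153140 CPM in the normal spleens, with none at 0 in a library. The 5 lymphoid miRNAs summed to 6200 to 15797 CPM in the tumors, 19173 to 36558 CPM in the benign masses and 17019 to 25531 CPM in the normal spleens, again with none at 0. Against normal spleen, mir-126 and mir-221 of the endothelial list rose in hemangiosarcoma and mir-10a fell. The median log2 fold change of the 6 was 1.11, against 0.03 over all miRNAs. Their summed CPM pointed the other way, with a median of 54007 in the tumors and 81226 in the normal spleens. A sum is set mostly by its most abundant miRNAs, so it does not give the direction of the list. All 5 lymphoid miRNAs fell in hemangiosarcoma against normal spleen by edgeR. Lymphocytes express mir-17-92, so this shift stands beside each comparison with hemangiosarcoma below, and its part in them was not tested. In tissue RNA, fewer cells of a type and less RNA per cell cannot be told apart.

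Taken per copy, the 8 miRNAs summed to 4915 ± 610 CPM (SD, n = 5) in the tumors, 5697 ± 1464 CPM (n = 5) in the benign masses and 5597 ± 1167 CPM (n = 5) in the normal spleens. Mir-92a and mir-20a together held most of this: 78.3% to 84.5% in the tumors, 76.0% to 80.8% in the benign masses and 82.2% to 86.3% in the normal spleens. By annotated mature reads, mir-92a ranked first and mir-20a next in mean level in each group, followed by mir-19b and mir-19a. Below them the order changed: mir-106a had rank 5 of the 8 in the tumors, rank 6 in the benign masses and rank 7 in the normal spleens. The tumor rank is that of a mean set by replicates 4 and 5 (296 and 157 CPM): in replicates 1 to 3 mir-106a lay below both mir-18a and mir-17, which is rank 7 as in the normal spleens. Among all miRNAs, mir-92a had rank 35 of 258 detected in the tumors, 34 of 259 in the benign masses and 32 of 250 in the normal spleens. Mir-20b had rank 129 in the tumors, 127 in the benign masses and 144 in the normal spleens. All these sums, shares and ranks leave out the mir-17 reads outside its annotated mature sequence. Over all reads of its hairpin, mir-17 averaged 696 CPM in the tumors, 796 CPM in the benign masses and 643 CPM in the normal spleens. All reads of mir-19b averaged 327, 533 and 447.5 CPM per copy in these groups, so by that measure mir-17 lay above mir-19b. The levels of different miRNAs are read counts and were not calibrated to molecules.

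**Figure D1:**
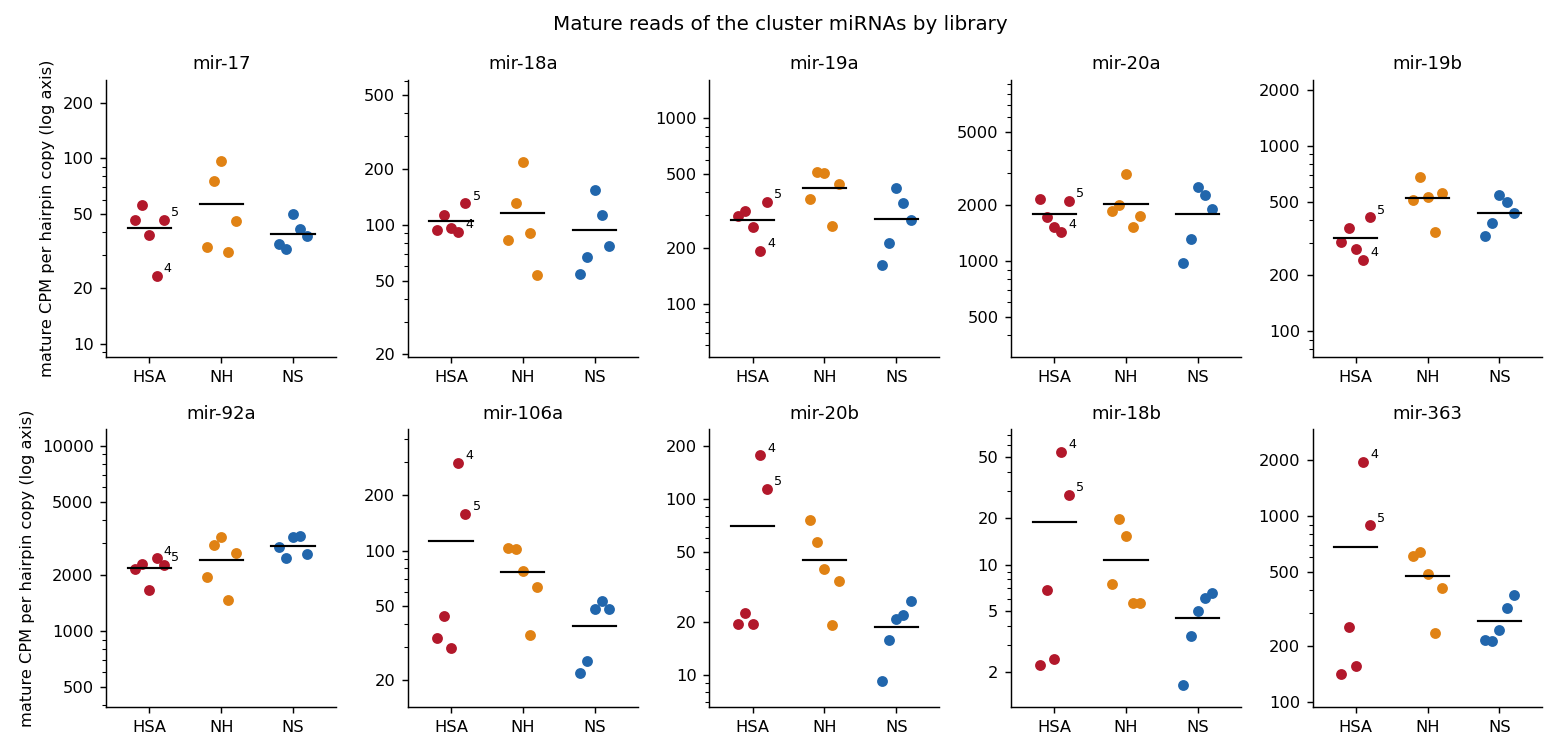
Mature CPM per hairpin copy on a log axis for the 8 cluster miRNAs and for mir-18b and mir-363 of the mir-106a cluster, with 1 point per library, hemangiosarcoma (HSA), nodular hyperplasia (NH) and normal spleen (NS) from left to right, and a bar at the group mean; hemangiosarcoma replicates 4 and 5 are numbered. The values of mir-19b and mir-92a pool the hairpins of both clusters. The first 6 panels overlap between most groups, and in the last 4 panels the same pair of tumors lies above the other 13 libraries.

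The first comparison asks how the tumor differs from normal spleen. Of the 8 miRNAs, 1 (mir-20b) was higher in hemangiosarcoma and none was lower, by edgeR's quasi-likelihood test at an adjusted p below 0.05, where 22.4% of all 250 miRNAs passed (34 higher and 22 lower). Unadjusted p was below 0.05 for 2 of the 8. Their median log2 fold change was 0.05, against 0.03 over all miRNAs tested. The 6 members of mir-17-92 did not pass, and those of the mir-106a cluster had the largest values.

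Mir-20b, which shares its seed with mir-20a, was at 19.5, 22.4, 19.5, 178 and 114 CPM in hemangiosarcoma replicates 1 to 5, and at 9.24, 15.9, 20.8, 22.1 and 26.5 CPM in normal spleen replicates 1 to 5. Hemangiosarcoma replicates 4 and 5 were far above every normal spleen, and the other 3 tumors lay within the range of normal spleens. The log2 fold change was 1.90 (SE 0.62, 95% interval 0.58 to 3.22, adjusted p = 0.0358, edgeR). Without hemangiosarcoma replicate 4 it was 1.21 (adjusted p = 0.159), and the call also ended without hemangiosarcoma replicate 5 (1.82, adjusted p = 0.0675) and without any one of normal spleen replicates 1 to 4 (1.74 to 1.96, adjusted p = 0.0690 to 0.0917). Hemangiosarcoma replicates 4 and 5 also had large shares of reads outside mature sequences (22.8% and 16.7%), as did replicate 3 (17.2%), whose mir-20b was low, and the part of this in the result was not tested. Of 12 alternatives that kept all libraries, 7 kept the call, among them all hairpin reads (2.03, adjusted p = 0.0317, edgeR). It ended in 5: limma voom (1.29, adjusted p = 0.192), the replicate block (1.56, adjusted p = 0.156), exact mature reads (1.69, adjusted p = 0.181), unscaled counts (1.97, adjusted p = 0.0742) and only the 2 groups compared (1.97, adjusted p = 0.0512). Exact reads were only 0% to 13.25% of the mir-20b mature reads of a library.

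Mir-106a, of the same seed, was at 33.5, 44.4, 30.0, 296 and 157 CPM in hemangiosarcoma and at 21.8, 25.3, 48.3, 53.1 and 48.4 CPM in normal spleen. The same pair of tumors stood above all normal spleens, and the other 3 overlapped them. The log2 fold change was 1.51 (SE 0.59, 95% interval 0.28 to 2.75), which did not pass the test (adjusted p = 0.0760, edgeR). Without hemangiosarcoma replicate 4 it was 0.75 (adjusted p = 0.345). It passed with DESeq2 (1.54, adjusted p = 0.0293), with library totals (2.28, adjusted p = 0.0410), with at least 10 counts in at least 5 libraries (1.70, adjusted p = 0.0440) and without any one of hemangiosarcoma replicates 1 to 3 (1.72 to 1.95, adjusted p = 0.0240 to 0.0439). It was 0.97 with limma voom (adjusted p = 0.287) and 0.52 with exact mature reads (adjusted p = 0.575). Exact reads were only 0.633% to 7.58% of the mir-106a mature reads of a library, so this last value rests on few reads.

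The other mature miRNAs of the mir-106a cluster were high in the same libraries. Mir-363, of the mir-92a seed, had 141, 254, 156, 1960 and 895 CPM in hemangiosarcoma replicates 1 to 5, against 216, 213, 243, 318 and 377 CPM in normal spleen. Mir-18b, of the mir-18a seed, had 2.21, 6.79, 2.44, 54.4 and 28.6 CPM in hemangiosarcoma, against 1.65, 3.41, 4.95, 6.03 and 6.51 CPM in normal spleen. Hemangiosarcoma replicates 4 and 5 were again the only tumors above all normal spleens, save that mir-18b of replicate 2 was at 6.79 CPM. Neither log2 fold change passed: 1.32 (SE 0.59, adjusted p = 0.131) for mir-363 and 2.05 (SE 0.78, adjusted p = 0.0717) for mir-18b, both by edgeR.

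Members of mir-17-92 that have no second copy were near 0 in this comparison. Mir-20a, the most abundant of them, was at 2176, 1729, 1535, 1442 and 2114 CPM in hemangiosarcoma and at 978, 1311, 2513, 2286 and 1904 CPM in normal spleen. Every tumor lay inside the range of the normal spleens, whose own values differed more among themselves. Its log2 fold change was 0.00 (SE 0.27, 95% interval -0.57 to 0.57, adjusted p = 0.999, edgeR).

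Mir-19a, which in mouse lymphoma carries much of the cluster's growth effect together with mir-19b, was at 299, 315, 261, 194 and 354 CPM in hemangiosarcoma and at 161, 212, 423, 350 and 282 CPM in normal spleen. Its groups overlapped throughout, with a log2 fold change of -0.01 (SE 0.29, 95% interval -0.62 to 0.61). Mir-18a was at 93.4, 113, 96.2, 92.0 and 131 CPM in hemangiosarcoma and at 54.4, 67.4, 154, 114 and 77.0 CPM in normal spleen, with a log2 fold change of 0.17 (SE 0.38, 95% interval -0.62 to 0.96). The intervals hold changes of more than 0.5 on the log2 scale in either direction, so equal levels were not shown.

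The annotated mature sequence of mir-17 had 46.8, 56.1, 38.7, 23.4 and 46.7 CPM in hemangiosarcoma, against 34.6, 32.3, 50.0, 41.5 and 38.4 CPM in normal spleen, and a log2 fold change of 0.10 (SE 0.36). All reads of the hairpin came to 768, 740, 602, 430 and 941 CPM in hemangiosarcoma and to 366, 485, 963, 743 and 657 CPM in normal spleen. The log2 fold change over all reads was 0.25 (adjusted p = 0.606, edgeR). By either measure hemangiosarcoma replicate 4, the tumor with the most mir-106a and mir-20b, had the least mir-17 of the 5 tumors.

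The 2 miRNAs with a copy in each cluster had negative log2 fold changes. Mir-92a, which in mouse restrains the growth of new vessels, was at 2169, 2301, 1678, 2478 and 2279 CPM per copy in hemangiosarcoma and at 2837, 2497, 3210, 3265 and 2622 CPM per copy in normal spleen. It was the only one of the 8 whose groups did not overlap, as was the case for 12.8% of the 250 miRNAs. Its log2 fold change of -0.40 (SE 0.22, 95% interval -0.88 to 0.07, adjusted p = 0.224, edgeR) did not pass, and with plain library totals it was 0.23, which moved the median of all miRNAs by 0.60. Mir-19b was at 303, 359, 279, 244 and 412 CPM per copy in hemangiosarcoma and at 325, 381, 540, 500 and 432 CPM per copy in normal spleen, with overlapping groups and a log2 fold change of -0.45 (SE 0.24, adjusted p = 0.201, edgeR), which became 0.12 with library totals.

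**Figure D2:**
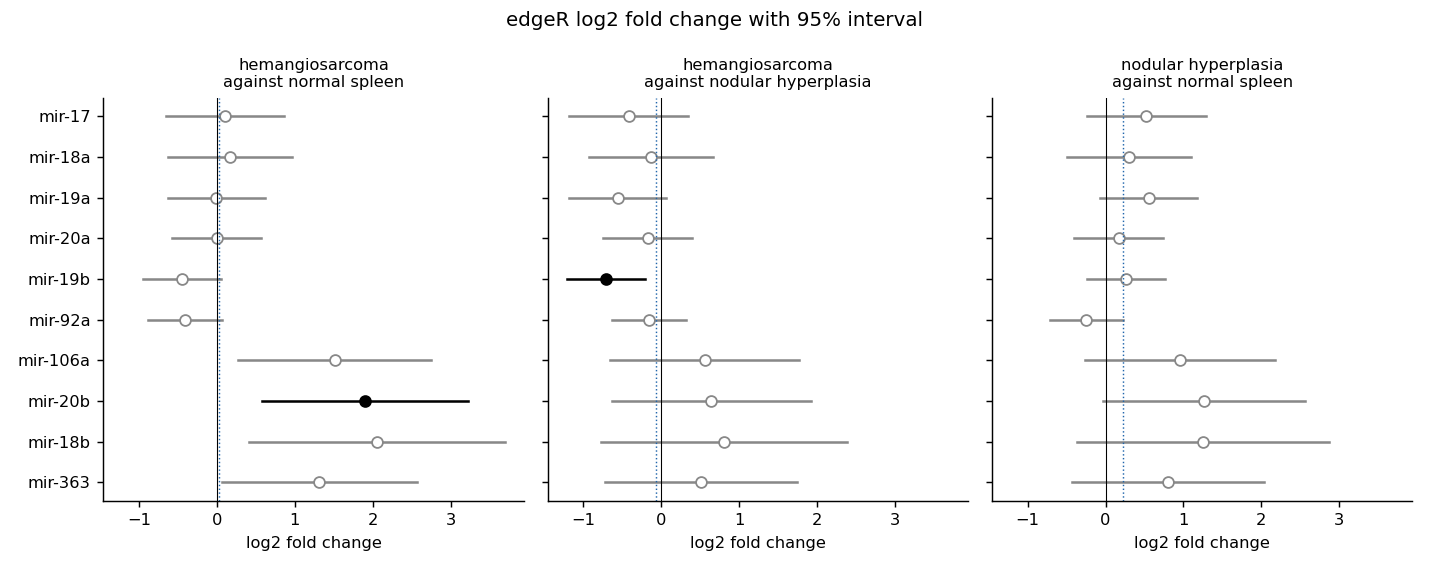
Log2 fold change (points) with its 95% interval (lines) from edgeR for the 8 cluster miRNAs and for mir-18b and mir-363 in the 3 comparisons; filled black points passed the test and the dotted line is the median of all 250 miRNAs. Mir-20b at 1.90 against normal spleen and mir-19b at -0.71 against nodular hyperplasia are the only filled points among the 10 miRNAs drawn.

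The second comparison sets the tumor against the benign mass, which was also taken at surgery from client-owned dogs. Of the 8 miRNAs, 1 (mir-19b) was lower in hemangiosarcoma and none was higher, where 18.4% of the 250 miRNAs passed (26 higher and 20 lower). No member had groups that did not overlap, as 8.0% of all miRNAs did. The median log2 fold change of the 8 was -0.17, against -0.07 over all miRNAs.

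Mir-19b had 303, 359, 279, 244 and 412 CPM per copy in hemangiosarcoma, against 512, 675, 530, 341 and 555 CPM per copy in nodular hyperplasia. Hemangiosarcoma replicates 2 and 5 lay above the lowest nodular hyperplasia, replicate 4, and the other tumors lay below all 5. The log2 fold change was -0.71 (SE 0.24, 95% interval -1.21 to -0.21, adjusted p = 0.0489, edgeR). This call rested on the exact set of libraries: it ended in 13 of the 15 fits that left out 1 library (-0.83 to -0.51 over all 15, adjusted p = 0.0275 to 0.130), and held only without hemangiosarcoma replicate 2 or nodular hyperplasia replicate 4. It also ended in 9 of 12 other alternatives, with a negative log2 fold change in each.

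Mir-19a, of the same seed and separable by sequence from mir-19b for most of its reads (75.4% to 93.8% unique), had 367, 517, 506, 264 and 444 CPM in nodular hyperplasia, beside the hemangiosarcoma values of 194 to 354 CPM given above. Its log2 fold change of -0.56 (SE 0.29, 95% interval -1.18 to 0.06) pointed the same way and did not pass (adjusted p = 0.174, edgeR). The lymphoid markers mir-142, mir-150, mir-155 and mir-342 fell in this comparison, 4 of the 5 on that list, and the endothelial markers mir-126, mir-10b and mir-130a rose, 3 of the 6 on theirs. The part of either in the mir-19b value was not tested.

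The other members of mir-17-92 had smaller differences from nodular hyperplasia. Mir-20a had 1865, 2021, 2957, 1534 and 1749 CPM in nodular hyperplasia and mir-92a had 1953, 2908, 3214, 1467 and 2640 CPM per copy, so that the tumor values of 1442 to 2176 CPM and 1678 to 2478 CPM per copy lay largely inside these ranges. Their log2 fold changes were -0.17 (SE 0.27) and -0.16 (SE 0.22). Mir-18a had 82.7, 132, 218, 90.6 and 53.8 CPM in nodular hyperplasia, which spanned all 5 tumors, with a log2 fold change of -0.13 (SE 0.38). Mir-17 had 33.5, 75.7, 96.5, 31.4 and 45.9 CPM in nodular hyperplasia for the annotated mature sequence, with a log2 fold change of -0.42 (SE 0.36), and -0.11 over all reads of the hairpin. Without nodular hyperplasia replicate 3 the mature value was -0.02 (adjusted p = 0.968, edgeR).

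For the mir-106a cluster, nodular hyperplasia lay mostly between the high and the low tumors. Mir-20b had 76.0, 56.9, 40.1, 19.2 and 34.3 CPM in nodular hyperplasia replicates 1 to 5, below hemangiosarcoma replicates 4 and 5 and, in 4 of 5, above hemangiosarcoma replicates 1 to 3. Mir-106a had 104, 102, 77.2, 35.1 and 63.7 CPM in nodular hyperplasia, with the same arrangement except that replicate 4 fell among the 3 low tumors. Log2 fold changes were 0.64 (SE 0.60, adjusted p = 0.458) for mir-20b and 0.56 (SE 0.57, adjusted p = 0.494) for mir-106a, both by edgeR. Without hemangiosarcoma replicate 4 they were -0.04 and -0.20, so 1 library set their direction.

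The third comparison sets the benign mass against normal spleen. None of the 8 miRNAs passed by edgeR, by DESeq2 or by limma voom, and none had an unadjusted p below 0.05 by edgeR, where 12.4% of the 250 miRNAs passed (14 higher and 17 lower) and the groups of 15.6% did not overlap. The log2 fold change was positive for 7 of the 8, with a median of 0.41, against 0.23 over all miRNAs. Since both comparisons with normal spleen share those 5 libraries, their values are not independent.

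Mir-20b had the largest value of the 8 in this comparison. Its 5 nodular hyperplasia libraries, at 19.2 to 76.0 CPM, overlapped the normal spleens at 9.24 to 26.5 CPM through replicate 4 alone, and the log2 fold change was 1.26 (SE 0.61, 95% interval -0.04 to 2.55, adjusted p = 0.175, edgeR). Fitted with only the 2 groups compared, it passed (1.25, adjusted p = 0.0358). Mir-106a had 0.95 (SE 0.58), mir-18b 1.25 (SE 0.77) and mir-363 0.80 (SE 0.59), all positive and none past the threshold.

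Within mir-17-92 the log2 fold changes of nodular hyperplasia against normal spleen were 0.55 (SE 0.29) for mir-19a, 0.52 (SE 0.36) for mir-17, 0.30 (SE 0.38) for mir-18a, 0.26 (SE 0.24) for mir-19b, 0.17 (SE 0.27) for mir-20a and -0.24 (SE 0.22) for mir-92a. Nodular hyperplasia replicate 3 was the highest of its group for mir-17, mir-18a, mir-20a and mir-92a, and replicate 2 for mir-19a and mir-19b. Without nodular hyperplasia replicate 3 the mir-18a value was -0.03 and the mir-17 value 0.27. Of the markers, mir-10a and mir-10b of the endothelial list and mir-181a of the lymphoid list fell in this comparison, and their part in these values was not tested.

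A ratio of 2 miRNAs within a library does not depend on how libraries are scaled. For 7 pairs and 3 comparisons, 21 differences in mean log2 ratio were tested by exact permutation of 5 against 5 libraries (two-sided, smallest possible p 0.0079). None passed at an adjusted p below 0.05 over the 21 tests, although 4 had an unadjusted p below 0.05. Even the smallest possible p became 0.0833 after this adjustment of the exact permutation tests. Several ratios at once would have had to reach it to pass, so no conclusion follows from the lack of a pass.

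**Figure D3:**
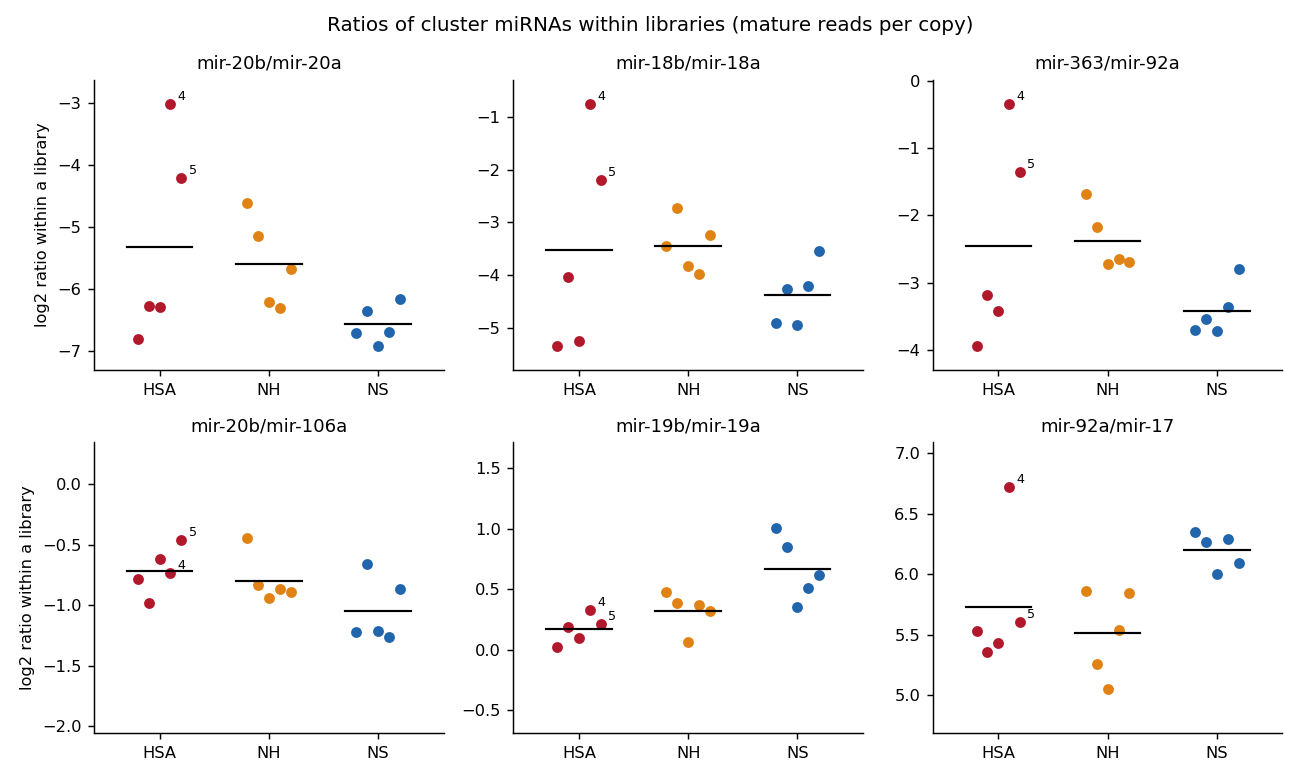
Log2 ratio of a pair of miRNAs within each library, from mature reads per copy with 0.5 counts added to both, for HSA, NH and NS from left to right with a bar at the group mean; hemangiosarcoma replicates 4 and 5 are numbered. In the top row, which sets a miRNA of the mir-106a cluster over its counterpart by seed, replicates 4 and 5 lie above all other libraries, and in mir-20b/mir-106a, both of 1 cluster, they lie among the others. In mir-363/mir-92a, the mir-92a reads pool the hairpins of both clusters.

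Mir-20b and mir-20a occupy matching places in the clusters and share a seed. Mir-20b reads were 0.896%, 1.30%, 1.27%, 12.4% and 5.41% of mir-20a reads in hemangiosarcoma replicates 1 to 5, 4.08%, 2.82%, 1.36%, 1.25% and 1.96% in the benign masses, and 0.944%, 1.22%, 0.826%, 0.967% and 1.39% in the normal spleens. Mir-20a therefore supplied most reads of this pair in every library, and its lead was smallest in hemangiosarcoma replicate 4. The mean log2 ratio was -5.31 ± 1.62 (SD, n = 5) in the tumors, -5.59 ± 0.71 in the benign masses and -6.56 ± 0.30 in the normal spleens. Exact permutation gave p = 0.167 (adjusted 0.50) for hemangiosarcoma against normal spleen and p = 0.0238 (adjusted 0.167) for nodular hyperplasia against normal spleen.

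The counterparts of the other seeds moved likewise. Mir-18b reads were 59.2% and 21.8% of mir-18a reads in hemangiosarcoma replicates 4 and 5, against 2.37% to 6.01% in the other tumors, 6.16% to 15.2% in the benign masses and 3.03% to 8.45% in the normal spleens. Mir-363 reads were 79.1% and 39.3% of mir-92a reads per copy in the same tumors, against 6.48% to 11.02% in the other tumors, 15.1% to 31.2% in the benign masses and 7.56% to 14.4% in the normal spleens. Inside the mir-106a cluster the proportions were far steadier: mir-20b reads were 50.5% to 72.8% of mir-106a reads in the tumors, 52.0% to 73.4% in the benign masses and 41.6% to 63.1% in the normal spleens.

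Of the pairs of mir-17-92 members, mir-19b over mir-19a had the smallest p in hemangiosarcoma against normal spleen, although it did not pass after adjustment. Reads of mir-19b and mir-92a pool both clusters, so ratios with them are not of mir-17-92 alone. Mir-19b reads per copy were 101%, 114%, 107%, 126% and 116% of mir-19a reads in the tumors, 139%, 131%, 105%, 129% and 125% in the benign masses, and 201%, 180%, 128%, 143% and 153% in the normal spleens. Hemangiosarcoma and normal spleen did not overlap, with a difference in mean log2 ratio of -0.50 and the smallest p that the exact permutation can give, 0.0079 (adjusted 0.0833). The mean of nodular hyperplasia lay between them, at -0.34 from normal spleen (exact permutation p = 0.0397, adjusted 0.208). With exact mature reads alone the difference for hemangiosarcoma was -1.53, and the share of mir-19a reads that match the annotated ends was 4.95% to 9.24% in hemangiosarcoma and 2.25% to 5.70% in normal spleen. Of the mir-19a mature reads, 75.4% to 91.3% were unique in hemangiosarcoma and 89.1% to 92.5% in normal spleen. The part of shared reads in the ratio was not tested.

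Mir-92a over mir-17 was lower in every nodular hyperplasia than in every normal spleen by annotated mature reads. The log2 ratio was 5.86, 5.26, 5.06, 5.54 and 5.84 in nodular hyperplasia, against 6.35, 6.27, 6.001, 6.29 and 6.09 in normal spleen, a difference in the mean of -0.69 (exact permutation p = 0.0079, the smallest possible, adjusted 0.0833). In hemangiosarcoma the log2 ratios were 5.53, 5.36, 5.43, 6.72 and 5.61, so that 4 tumors lay below all normal spleens and replicate 4 above them (difference from normal spleen -0.47, exact permutation p = 0.0873, adjusted 0.367). Over all hairpin reads the difference of nodular hyperplasia from normal spleen was -0.61 (exact permutation p = 0.0397, adjusted 0.167).

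By mature reads, the remaining ratios within mir-17-92 had no unadjusted p below 0.05 by exact permutation, which does not show that they were equal. Over all hairpin reads, mir-19a over mir-17 differed by -0.38 in hemangiosarcoma against nodular hyperplasia (exact permutation p = 0.0397, adjusted 0.167). It differed by -0.11 against normal spleen (exact permutation p = 0.0873, adjusted 0.259). By mature reads, the difference of hemangiosarcoma from normal spleen in mean log2 ratio was 0.20 for mir-18a over mir-17, -0.01 for mir-19a over mir-17 and 0.00 for mir-20a over mir-17, with exact permutation p of 0.460, 0.937 and 0.976. For mir-106a over mir-17, whose annotated reads lie on opposite arms, it was 0.92 (p = 0.381, exact permutation), with a spread among tumors of 1.83 (SD, n = 5).

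Correlation across libraries divided the miRNAs that have no second copy by their cluster. Mir-19b and mir-92a have a hairpin in each cluster and are left out of the sets compared first. Over the 15 libraries, which share TMM scaling and depth, the Spearman correlation of log2(CPM + 1) was 0.92 to 0.97 for the 6 pairs among mir-106a, mir-20b, mir-18b and mir-363. It was 0.54 to 0.76 for the 6 pairs among mir-17, mir-18a, mir-19a and mir-20a, and 0.09 to 0.54 for the 16 pairs between these sets. For mir-106a and mir-20b, Pearson's r was 0.98 and Spearman's rho 0.97, and without the 2 libraries farthest from the median, hemangiosarcoma replicates 4 and 5, they were 0.95 and 0.96. These are descriptions, without a test.

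Taken as deviations from the group means, which removes differences between groups, the pairs within mir-17-92 were at 0.78 to 0.86, those within the mir-106a cluster at 0.87 to 0.98 and those between at -0.08 to 0.44. Mir-19b followed mir-19a (0.93) more than any miRNA of the mir-106a cluster (0.39 to 0.49). Not all mir-19a reads were unique to that hairpin, and the part of this in the value was not tested. Mir-92a was at 0.52 to 0.59 with the other members of mir-17-92 and at 0.39 to 0.60 with those of the mir-106a cluster. On levels, mir-19b was at 0.271 (mir-18a) to 0.875 (mir-19a) with the other members of mir-17-92 and at 0.304 to 0.414 with the mir-106a cluster. The libraries farthest from the median of mir-19b were hemangiosarcoma replicate 4 and nodular hyperplasia replicate 2. Without these, mir-19b was at 0.544 to 0.714 with the mir-106a cluster and at 0.582 with mir-92a, so its low values with that cluster depended on 2 libraries. The level correlations of mir-92a were 0.30 to 0.59 with the other members of mir-17-92 and 0.08 to 0.23 with the mir-106a cluster. Without hemangiosarcoma replicate 3 and nodular hyperplasia replicate 4, the 2 libraries farthest from its median, mir-92a was at -0.24 to -0.07 with the mir-106a cluster. For its pairs with mir-17-92, the 2 libraries farthest from the median of the other miRNA were left out, which gave 0.23 to 0.58. The libraries left out differ, so these ranges cannot be set against each other.

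**Figure D4:**
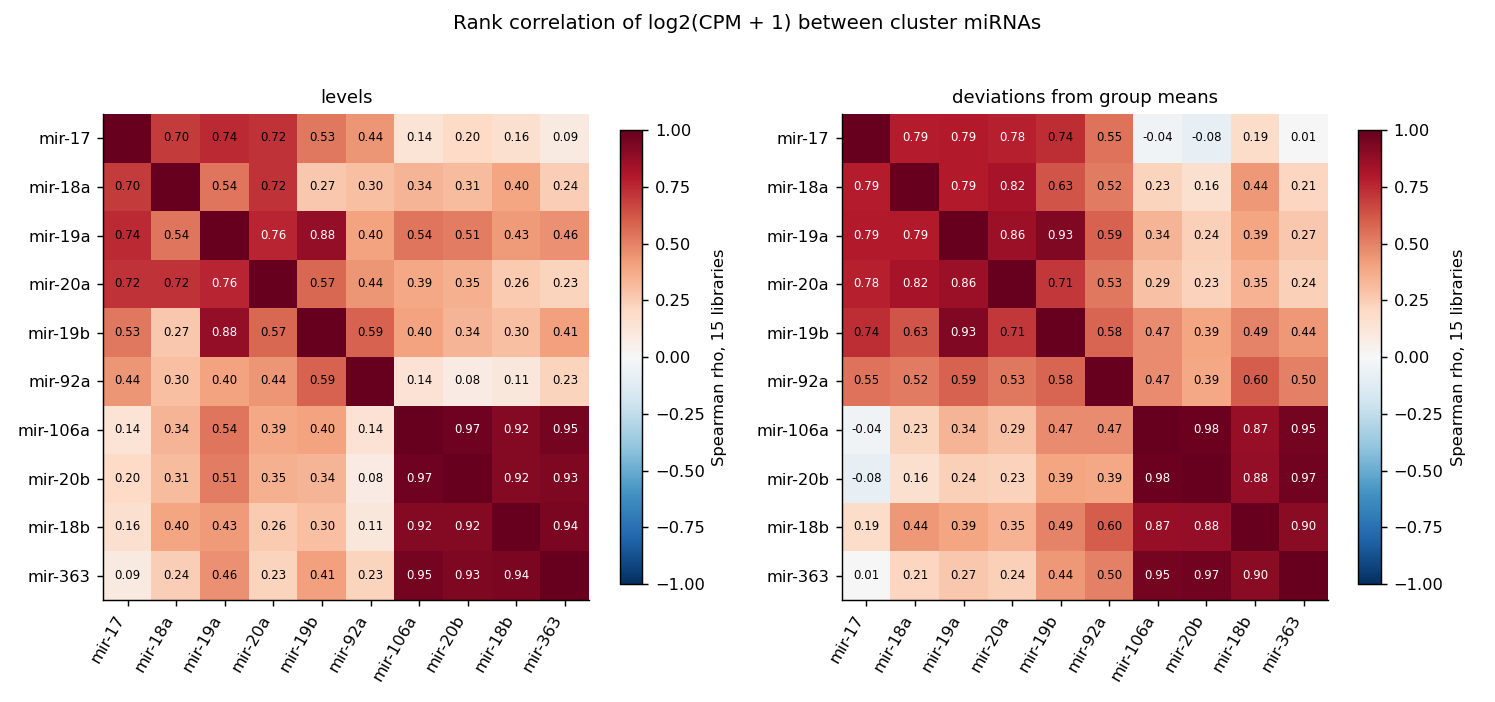
Spearman rank correlation of log2(CPM + 1) over 15 libraries between the 10 miRNAs of both clusters, for levels (left) and for deviations from group means (right), with color from -1 (blue) to 1 (red). The lower right block of the mir-106a cluster is at 0.92 to 0.97 for levels, the upper left block of mir-17, mir-18a, mir-19a and mir-20a at 0.54 to 0.76, and the pairs between these blocks at 0.09 to 0.54.

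Among 176 miRNAs outside the 8 that reached a mean of 10 CPM in a group, those most like the mean of mir-17, mir-18a, mir-19a and mir-20a over the 15 libraries were mir-93 (Spearman 0.79), mir-15a (0.78), mir-708 (0.77), mir-106b (0.73) and mir-30c (0.70). On deviations from group means they were mir-93 (0.88), mir-15b (0.87), mir-15a (0.86), mir-590 (0.84) and mir-29b (0.80). Mir-93 and mir-106b belong to the mir-106b-25 cluster, another relative of mir-17-92, and share the seed of mir-20a. All these levels are of annotated mature reads. Those most like the mean of mir-106a and mir-20b were its cluster mates mir-363 (0.96) and mir-18b (0.92), then mir-130b (0.74), mir-98 (0.70) and mir-106b (0.67).

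Of 8 related miRNAs that were looked for, 7 were measured and mir-367 was not analysed here. Mir-93 averaged 1323 ± 329 CPM in the tumors, 1344 ± 376 CPM in the benign masses and 1661 ± 642 CPM in the normal spleens (SD, n = 5 each), and mir-106b and mir-32 likewise passed no test on mature reads. For mir-106b, 35.2% to 87.4% of hairpin reads lay outside the annotated mature sequence. Its mature reads averaged 558 CPM in the tumors and 395 CPM in the normal spleens. All its reads averaged 1131 CPM in the tumors and 1612.5 CPM in the normal spleens, the opposite direction. Mir-25, of the mir-92a seed, fell in hemangiosarcoma against normal spleen (2205 ± 661 CPM in the tumors against 3637 ± 822 CPM in the normal spleens, SD, n = 5 each, log2 fold change -0.72, SE 0.25, adjusted p = 0.0448, edgeR), a call that ended in 14 of 15 fits that left out 1 library.

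Mir-92b shares the mir-92a seed and lies outside all 3 clusters. It had 60.5, 6.94, 14.4, 195 and 135 CPM in hemangiosarcoma, so that replicates 4 and 5, the tumors with most of the mir-106a cluster, were also highest here, and its counts there were 936 and 776 reads. Normal spleens had 9.24 to 10.7 CPM of mir-92b and nodular hyperplasias 4.35 to 11.3 CPM, so hemangiosarcoma replicate 2 lay below every normal spleen. The log2 fold change of mir-92b in hemangiosarcoma was 3.07 (SE 0.69, adjusted p = 0.00595, edgeR) against normal spleen and 3.52 (SE 0.70, adjusted p = 0.00279, edgeR) against nodular hyperplasia, and both calls held without any one library, while limma voom ended the call against normal spleen (2.13, adjusted p = 0.0711). The mir-92a level was 2478 CPM per copy in hemangiosarcoma replicate 4, the highest of the tumors, and 2279 CPM per copy in replicate 5, their median.

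MYC, which in human and mouse lymphoma cells raises mir-17-92, lowers a set of other miRNAs there. Of 20 such miRNAs, 18 were tested. In hemangiosarcoma against normal spleen 7 of them fell (let-7f, let-7g, mir-26a, mir-26b, mir-30b, mir-30e and mir-150) and 1 rose (mir-34a), where 22 of all 250 miRNAs fell and 34 rose, and the median log2 fold change was -0.25, against 0.03 over all miRNAs. Against nodular hyperplasia, 2 fell (mir-29a and mir-150) and none rose, where 20 of all 250 fell and 26 rose, with a median of -0.41, against -0.07 over all miRNAs. In nodular hyperplasia against normal spleen 4 rose (mir-29a, mir-29b, mir-29c and mir-34a) and 1 fell (mir-26a), where 14 of all 250 rose and 17 fell, with a median of -0.09, against 0.23. Mir-150 is also on the lymphoid marker list.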

How the data were processed

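Small RNA of 15 canine spleens was sequenced, 1 library each. According to the study's methods, the authors ran FastQC, trimmed adapters and counted reads in CLCbio against dog hairpins of miRBase release 20; canFam3 is the build in the labels. Their tables hold deposited counts, raw and per hairpin, with mature reads of each arm apart from the reads elsewhere. The mature reads of the 5' and 3' arms were summed here, and so were copies. The 250 miRNAs with at least 10 counts over all libraries were fitted in edgeR 4.0.16 (R 4.3.3) with TMM scaling and the quasi-likelihood test, all 3 groups in 1 fit. Benjamini-Hochberg adjustment ran over all miRNAs of a comparison, with a threshold of 0.05. The authors used t-tests for each miRNA instead. The SE is the absolute log2 fold change divided by the root of the F statistic. Ratios (0.5 counts added) were tested by exact permutation in scipy 1.17.1 and adjusted over 21 tests. Alternatives were DESeq2 1.42.0, limma 3.58.1 (voom), other scalings, filters and read classes, a replicate block, only the 2 groups compared, and leaving out each library. The fit was tested on simulated data.

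The members and lists were chosen with earlier results of these data known. Named miRNAs were the 8 members, 8 relatives by seed or cluster, the 5 most alike by Spearman correlation to each cluster, MYC-repressed miRNAs and cell type markers, of which those for endothelial and lymphoid cells are described. The myeloid, erythroid, smooth muscle, striated muscle, pancreas and epithelial lists are summarised with the other observations. The labels call the libraries biological replicates, and p-values measure the spread between them.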

Additional observations from a re-analysis of the deposited data

Results flagged for a closer look

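Of 57 groups of 5 values examined, 1 had a value far from the rest: the log2 ratio of mir-92a to mir-17 in hemangiosarcoma replicate 4, at 6.72, whose gap to the next tumor was 0.816 of the range of the group. Chance flags about 1 in 20 such groups. In that library 112 reads fell on the mature sequence annotated for mir-17, the fewest of the 5 tumors, and the share of reads outside mature sequences was the highest of all libraries (22.8%). The part of either in this value was not tested.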

How the results depend on the processing

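The count of 1 member called in hemangiosarcoma against normal spleen became 2 with library totals, with at least 10 counts in at least 5 libraries and with DESeq2, and 0 with unscaled counts, limma voom, exact mature reads or only the 2 groups compared, and had a range of 0 to 2 when libraries were left out. Against nodular hyperplasia the count of 1 became 0 with library totals, unscaled counts, no filter, at least 10 counts in at least 5 libraries, limma voom, all hairpin reads, exact mature reads and only the 2 groups compared, and was 0 to 1 with libraries left out. In nodular hyperplasia against normal spleen the count of 0 became 1 with only the 2 groups compared. No ratio passed under any alternative run, where the smallest possible p was likewise limiting. Mir-20b against normal spleen was at 1.29 to 2.66 over 12 alternatives that kept all libraries, positive in each. Taking 1 copy of each mature miRNA, an alternative chosen after seeing the data, changed no count.

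With the replicate number as a block, the counts were 0, 0 and 0, mir-20b in hemangiosarcoma against normal spleen was at 1.56 (adjusted p = 0.156, edgeR) and mir-19b against nodular hyperplasia at -0.71 (adjusted p = 0.0843, edgeR). The numbers name dogs of different groups and do not pair them: over 15 pairs of same-numbered libraries, deviations correlated at -0.33 to 0.32, 5 of them above 0.1, and 2 libraries correlated best with their own number.

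Signs changed only for values that passed no test. In hemangiosarcoma against normal spleen, mir-19a became 0.50 with library totals, 0.0561 unscaled, 0.0405 without filter, 0.15 with 10 counts in 5 libraries, 0.0221 with voom, 0.0127 with the block, 0.12 with all hairpin reads, 0.76 with exact reads and 0.0858 with only the 2 groups. Library totals turned mir-19b (0.12) and mir-92a (0.23), and mir-20a was -0.0086 with RLE scaling and -0.0087 with DESeq2. Against nodular hyperplasia, mir-18a became 0.0345 with voom and 0.0227 with the block, mir-18b -0.0484 and -0.0233, mir-363 -0.20 and -0.16, and mir-106a -0.0095 with the block, while exact reads gave 0.0606 for mir-19a and 0.0036 for mir-92a. In nodular hyperplasia against normal spleen, library totals gave 0.45 for mir-92a, 0.26 for mir-92b and 0.41 for mir-25, and unscaled counts 0.0444 for mir-92a. Library totals moved the median of all miRNAs by 0.60 in hemangiosarcoma and 0.58 in nodular hyperplasia, both against normal spleen, and unscaled counts by 0.17 and 0.21. Of the ratios, exact reads gave -0.25 for mir-106a/mir-17 and 0.0254 for mir-18a/mir-17 in nodular hyperplasia against normal spleen, 0.70 and 0.33 for mir-19a/mir-17 in hemangiosarcoma against normal spleen and against nodular hyperplasia, and -0.0743 for mir-20a/mir-17 against normal spleen, which was -0.0833 with all hairpin reads. The cause of these changes was not tested.

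With libraries left out, ranges that crossed 0 in hemangiosarcoma against normal spleen were -0.0155 to 0.29 (mir-17), -0.15 to 0.19 (mir-19a), -0.15 to 0.22 (mir-20a), -0.16 to 0.0588 (mir-19a/mir-17) and -0.15 to 0.13 (mir-20a/mir-17). Against nodular hyperplasia they were -0.31 to 0.36 (mir-18a), -0.26 to 0.14 (mir-20a), -0.30 to 0.0942 (mir-92a), -0.20 to 0.99 (mir-106a), -0.0442 to 1.08 (mir-20b), -0.11 to 1.26 (mir-18b), -0.40 to 0.96 (mir-363), -0.30 to 0.64 (mir-20b/mir-20a), -0.33 to 0.70 (mir-106a/mir-17) and -0.0313 to 0.31 (mir-92a/mir-17). In nodular hyperplasia against normal spleen they were -0.0273 to 0.56 (mir-18a) and -0.28 to 0.0447 (mir-18a/mir-17). Depth limited mir-18b most, with 5 to 261 reads per library.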

Other observations

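Among the other marker lists, mir-451 of the erythroid list, mir-143 of the smooth muscle list, mir-206 of the striated muscle list and mir-203 of the epithelial list fell in hemangiosarcoma against normal spleen, and mir-375 and mir-216b of the pancreas list rose, by edgeR at an adjusted p below 0.05. Against nodular hyperplasia, mir-200c and mir-141 fell in hemangiosarcoma and mir-375 rose. In nodular hyperplasia against normal spleen, mir-143, mir-145, mir-1 and mir-133a fell and mir-141 rose. The myeloid marker mir-223 passed in no comparison. The summed level of the pancreas list reached 3518 CPM in hemangiosarcoma replicate 3 and 6.05 CPM or less in the other 4 tumors, so its calls rest on 1 library, which is not among the tumors with high mir-106a. The part of these shifts in the cluster values was not tested.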
